A study of Mus musculus with 14 samples.

Results

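Solute carriers are membrane proteins, encoded by Slc genes, that move nutrients, ions, metals and nucleotides across the plasma membrane and the membranes of lysosomes, mitochondria and the Golgi apparatus. The 50 genes described here are those whose symbol follows the Slc naming pattern, without pseudogenes and antisense genes, and whose mean level over the 14 libraries was at least 5 TPM (an abundance scaled for gene length and library size). They were 50 of 373 genes with such a symbol, in a table of 35735 genes. Of the other 323, 6 were at 0 in all libraries. Because their mean TPM chose the genes, those means are given as a description only. The libraries came from microglia, the resident macrophages of neural tissue, sorted out of mouse retina. Mice were 12 weeks old, and each library came from 1 retina, whose cells were enriched on a Percoll gradient and sorted as Fcrls+, CD11b+ and Ly6c-. The 4 groups were APOE E3/E3 mice with a microbead injection (APOE3 microbead, n = 3), APOE E3/E3 mice with a sham injection (APOE3 sham, n = 4), APOE E4/E4 mice with a microbead injection (APOE4 microbead, n = 3) and APOE E4/E4 mice with a sham injection (APOE4 sham, n = 4). Microbeads injected into the eye obstruct fluid outflow and serve as a glaucoma model. Since no label ties a retina to an animal, p-values measure only the spread between these samples, which may be technical.

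Microglia take up hexoses, amino acids and folate through carriers at the cell surface, and recycle what they engulf through carriers in the lysosomal membrane. Activated macrophages are known to turn to glycolysis and to hold back iron and other metals, so hexose and metal carriers are often followed in them. The glucose transporter family member GLUT5, encoded by Slc2a5, carries fructose and is an established marker of microglia.

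Libraries held 451173 to 727439 estimated reads assigned to genes, of which 1664 to 3797 fell on the 50 Slc genes. The 12 most abundant genes took 39.5% to 65.1% of a library, so TPM is used here only to compare genes with each other. All of these 12 but Cst3 and Ctsd were predicted genes with Gm symbols, led by Gm10800 with 2237546 reads over all libraries. Libraries are compared by TMM-normalised CPM (reads of a gene per library total, corrected between libraries by a factor that leaves extreme genes out) and groups by the edgeR quasi-likelihood test. In that test a gene was called at a Benjamini-Hochberg adjusted p under 0.05 over all 7605 genes tested, which held all 50 Slc genes. The 12 microglial markers together had 6990, 10755 and 11845 CPM in APOE3 microbead, against 14321 to 19538 in APOE3 sham. They had 14353 to 16760 CPM in APOE4 microbead, against 14248 to 17220 in APOE4 sham. The 12 monocyte markers together had 1591, 782 and 328 CPM in APOE3 microbead libraries 1, 2 and 3, against 69.6 to 112 in APOE3 sham, and Fn1 made up 1319, 335 and 237 of these. Without Fn1, the other 11 had 272, 447 and 90.9 CPM in these libraries, so which had the most rests on that gene. In APOE3 sham these 11 had 33.6 to 98.4 CPM. All 12 had 64.4, 233 and 100 CPM in APOE4 microbead, against 58.7 to 81.2 in APOE4 sham. Without Fn1, the other 11 had 58.3, 93.1 and 76.1 CPM in APOE4 microbead, against 33.8 to 54.7 in APOE4 sham. Ly6c2, the gene of the antigen used to sort monocytes out, stayed between 0 and 6.63 CPM in all 14 libraries. Results for APOE3 microbead are therefore also given without libraries 1 and 2, which had the most monocyte marker RNA with or without Fn1.

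The most abundant of the 50 by mean TPM was Slc38a6, a member of the sodium-coupled neutral amino acid transporter family, at 44.4 TPM. It was followed by Slc25a5, a mitochondrial ADP/ATP translocase, at 38.0 TPM and Slc25a3, the mitochondrial phosphate carrier, at 37.4 TPM. Slc11a1, the phagosomal divalent metal transporter NRAMP1 known for restricting intracellular microbes, had 35.4 TPM. Slc3a2, the CD98 heavy chain that pairs with amino acid exchangers, had 29.2 TPM. Of its known light chains, Slc7a8 (LAT2) had 13.9 TPM, Slc7a7 9.37 TPM and Slc7a6 5.15 TPM. The next by level were Slc2a5 at 18.7 TPM, Slc35b2, the Golgi carrier of the sulfate donor PAPS, at 18.6 TPM, and Slc16a6, a monocarboxylate transporter family member, at 17.2 TPM. Slc29a3, a lysosomal nucleoside transporter, had 15.5 TPM, and Slc50a1, a sugar transporter of the SWEET family, had 14.9 TPM. Slc25a11, the mitochondrial oxoglutarate carrier, followed at 13 TPM and Slc12a9, of the cation-chloride cotransporter family, at 12.7 TPM. The taurine transporter Slc6a6 had 12.0 TPM and the zinc importer Slc39a1 10.9 TPM.

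By class, 13 amino acid and peptide carriers summed to 165 TPM, 8 mitochondrial carriers to 131 TPM and 6 metal carriers to 74.3 TPM. The 5 nucleotide sugar and Golgi carriers summed to 48.0 TPM, the 4 hexose carriers to 46.1 TPM, the 5 ion carriers to 39.2 TPM and the 2 nucleoside carriers to 26.1 TPM. Mean TPM reached 10 for 19 of the 50, and 32 had at least 5 TPM in every group mean. Just inside the threshold were the lysosomal peptide and histidine carrier Slc15a3 (5.08 TPM), Slc35f6 (5.08 TPM) and the Golgi zinc carrier Slc30a6 (5.00 TPM). Just outside it were Slc25a20 (4.99 TPM), Slc16a10 (4.96 TPM) and Slc25a17 (4.90 TPM). All but Slc30a6, which had 0 reads in APOE4 sham 4, were above 0 in every library.

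**Figure D1:**
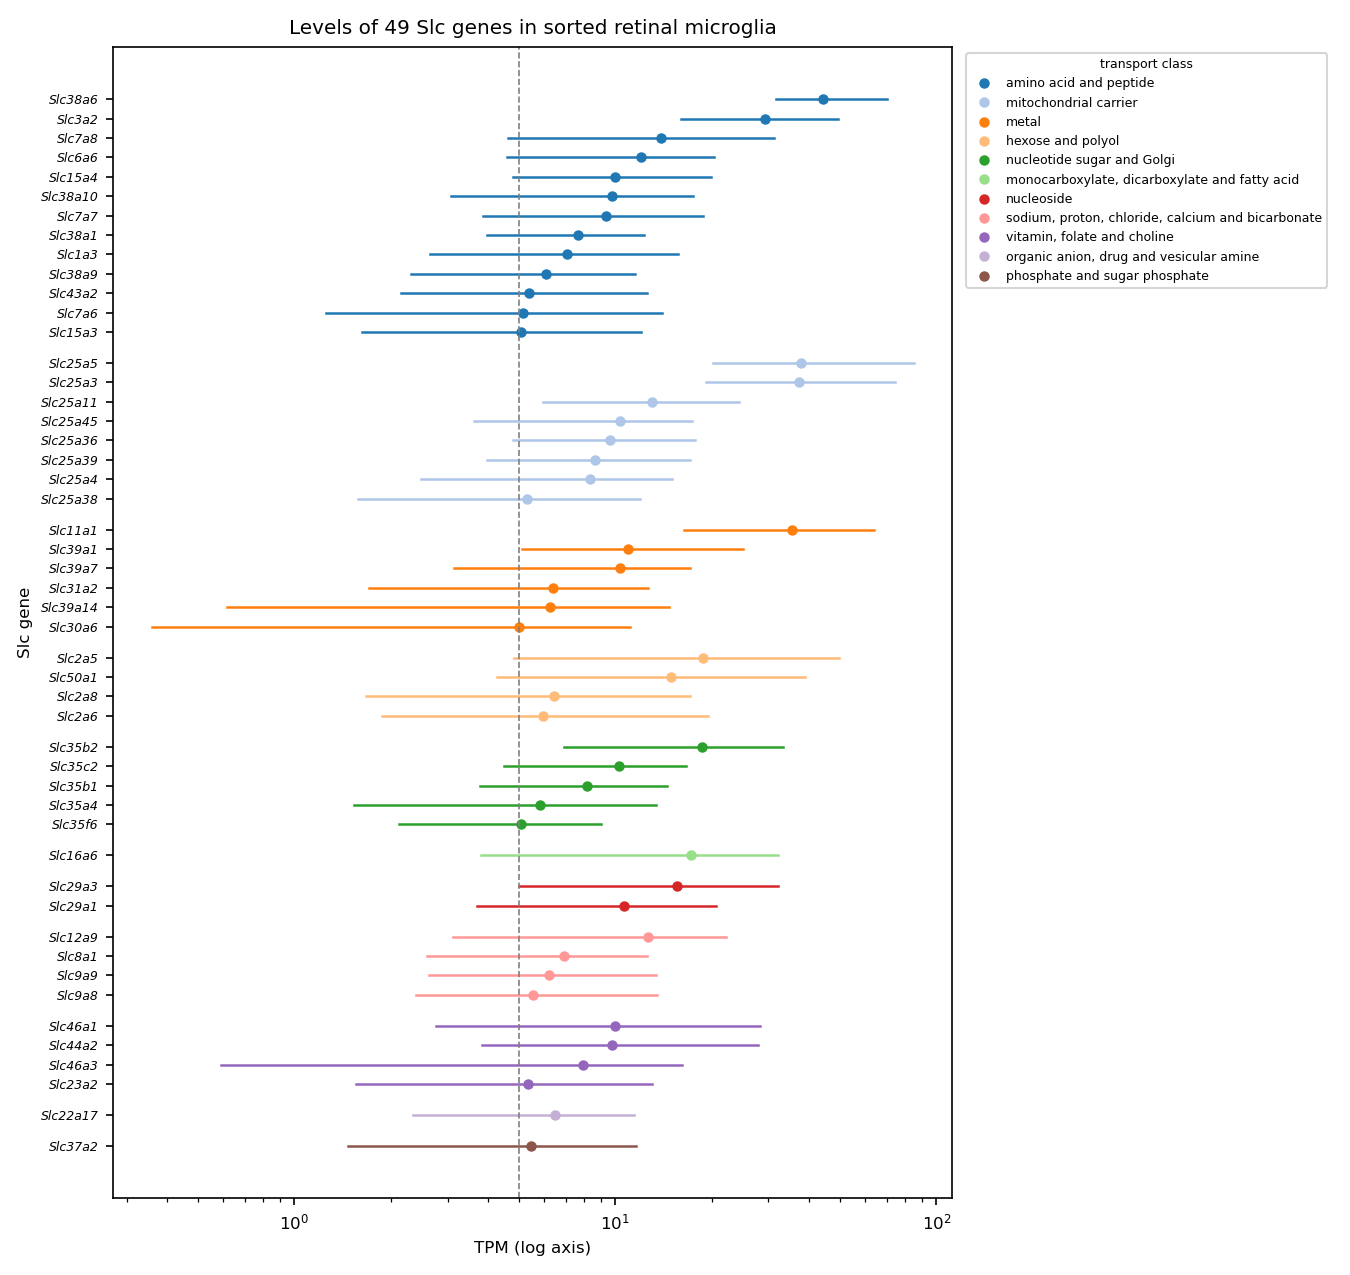
Mean TPM of 49 of the 50 Slc genes over 14 libraries (point, log axis), with a line from the lowest to the highest library above 0, grouped and coloured by transport class; the dashed line marks 5 TPM. The 5 highest points, Slc38a6, Slc25a5, Slc25a3, Slc11a1 and Slc3a2, lie between 29.2 and 44.4 TPM.

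Spread within groups was moderate for most of these genes. The coefficient of variation of CPM, averaged over the 4 groups, had a median of 24.7% over the 50, against 31.9% over all 7605 genes tested, whose median CPM was also lower (27.2, against 61.4 for the 50). Slc29a3 varied least, by 11.6%, and Slc11a1 by 13.6%. Slc30a6 varied most, by 60.5%, followed by the glutamate transporter Slc1a3 with 46.7%. Summed over the 50, CPM was 3889 ± 107 in APOE3 microbead, against 4282 ± 237 in APOE3 sham (SD, n = 3 and 4). The sum was 4219 ± 114 in APOE4 microbead, against 4077 ± 73.6 in APOE4 sham (SD, n = 3 and 4). Because cells were sorted and pooled per retina, fewer cells of a type and less RNA per cell cannot be told apart in any of these values.

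Microbead was first set against sham in APOE3 mice, which asks how the glaucoma model changes these carriers in that genotype. Of the 50 Slc genes, 5 were called: the hexose transporter Slc2a6 and the metal importer Slc39a14 rose, and the fructose transporter Slc2a5, the folate transporter Slc46a1 and the lysosomal carrier Slc46a3 fell. This was 10% of the 50, against 5.15% of all genes tested. DESeq2 called 6, these 5 and Slc7a8, against 4.03% of the 11455 genes to which it gave an adjusted p. With only reads on transcripts annotated as protein coding, an alternative chosen after seeing the data, edgeR called 2 of the 46 Slc genes still tested, Slc2a5 and Slc7a8, against 4.18% of 6057 genes. The 2 higher stand against 3.54% of all genes called higher, and the 3 lower against 1.62% called lower. At an unadjusted p under 0.05 the test gave 14 of the 50, or 28%, against 14.7% of all genes. The genes compared differ in level, with a median CPM of 61.4 for the 50 and 27.2 for all genes tested. The shares were not corrected for this. The rule on mean TPM itself bears on these counts: 5 of the 50, Slc2a6, Slc43a2, Slc7a6, Slc15a3 and Slc30a6, averaged under 5 TPM over the libraries outside APOE3 microbead and so entered only through that group, where they had to be high. Slc2a6, for example, averaged 11.9 TPM in APOE3 microbead, against 4.35 TPM over the other libraries. Without these 5, 4 of 45 were called, 1 higher and 3 lower. The median log2 fold change was -0.05 over the 50 and -0.02 over all genes. Groups did not overlap for 4 Slc genes that were higher (7.63% of all genes), of which Slc2a6 and Slc43a2 entered only through APOE3 microbead, and for 7 that were lower (5.52% of all genes).

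Slc2a5 had 31.7, 52.3 and 112 CPM in the 3 APOE3 microbead libraries, against 222, 235, 189 and 223 CPM in the 4 APOE3 sham libraries. Every microbead library was below every sham library, and library 1 was the lowest. The log2 fold change was -1.72 ± 0.27 (SE, adjusted p = 0.000178). Without APOE3 microbead 3, the highest of the 3, it was -2.32, against -1.43 without library 1 and -1.56 without library 2. In APOE4 the same gene had 121, 128 and 156 CPM after microbeads, against 188, 167, 173 and 145 CPM after sham. These groups overlapped, and the log2 fold change of -0.32 ± 0.26 was not called (adjusted p = 0.915).

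Slc2a6, the hexose transporter GLUT6 of internal membranes that inflammatory stimuli induce in mouse macrophages, had 83.7, 90.2 and 76.7 CPM in APOE3 microbead, against 25.8, 40.4, 26.4 and 22.8 CPM in APOE3 sham. The groups were far apart, with a log2 fold change of 1.54 ± 0.30 (adjusted p = 0.00139), but the gene was among the 50 only because of its level in APOE3 microbead, so its higher value there is partly set by the choice of genes. On coding transcripts alone the log2 fold change was 1.58 ± 0.50 and was not called (adjusted p = 0.0941). In APOE4 it had 44.3, 59.8 and 46.7 CPM after microbeads, against 28.7, 24.8, 10.7 and 13.2 CPM after sham. In total reads every microbead library was above every sham library. The log2 fold change of 1.36 ± 0.33 was not called by edgeR (adjusted p = 0.0813) and was called by DESeq2 (adjusted p = 0.0173). The reads behind this lay on different kinds of transcript: 45.6% were on coding ones in APOE4 microbead, against 82.2% in APOE4 sham. On coding transcripts alone it had 16.2, 41.3 and 19.5 CPM in APOE4 microbead, against 32.9, 24.8, 11.9 and 2.17 CPM in APOE4 sham. Those groups overlapped, on 38.7 estimated reads in APOE4 microbead and 36.2 in APOE4 sham, and the log2 fold change was 0.52 ± 0.56 (adjusted p = 0.97). In total reads, the difference between the 2 genotypes in this response was -0.18 on the log2 scale, with a 95% interval from -1.12 to 0.76. On coding transcripts it was -1.07, with an interval from -2.67 to 0.54.

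The remaining hexose carriers did not pass the test in APOE3. Slc50a1 had a log2 fold change of -0.08 ± 0.31 and Slc2a8, a hexose transporter of internal membranes, one of -0.32 ± 0.35. Of 8 genes tested from a list of hexose use after uptake, 2 rose, against 3.54% of all genes called higher: Ldha, which makes lactate, by 0.85 ± 0.22 and Gpi1, of glycolysis, by 0.73 ± 0.21 on the log2 scale (adjusted p = 0.0159 and 0.039). On that list Txnip, an inhibitor of glucose uptake, had a log2 fold change of -0.91 ± 0.23 and so fell (adjusted p = 0.0139), against 1.62% of all genes called lower. In APOE4, 0 of the 8 were called.

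Slc39a14 (chr14:70303469-70351425, minus strand, GRCm38) encodes ZIP14, a cell-surface importer of zinc, iron and manganese. It had 38.5, 33.4 and 14.3 CPM in APOE3 microbead, against 6.87, 7.03, 8.13 and 3.60 CPM in APOE3 sham. All microbead libraries were above all sham libraries, on 55 reads over the microbead libraries and 15 over the sham libraries. The log2 fold change was 2.17 ± 0.50 (adjusted p = 0.00696). It was no longer called without APOE3 microbead 2, at 2.02 (adjusted p = 0.0645), nor with length offsets, which correct each library for the transcript lengths in use, at 2.03 (adjusted p = 0.242). In APOE4 it had 18.1, 24.9 and 17.3 CPM after microbeads, against 7.18, 4.97, 12.5 and 13.2 CPM after sham. Those groups did not overlap either, but the log2 fold change of 1.09 ± 0.50 was not called (adjusted p = 0.712). Much of the signal came from transcripts not annotated as protein coding: 36.4% of its reads lay on coding ones, and a retained-intron transcript alone took 37.3%. On coding transcripts there were 23.9 estimated reads over APOE3 microbead, against 4.00 over APOE3 sham, too few to pass the filter of that test.

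The other 5 metal carriers did not pass the test in APOE3. Their log2 fold changes lay between 0.00 for the zinc transporter Slc39a7, whose sign turned with the scaling, and 0.96 ± 0.33 for the copper transporter Slc31a2 (adjusted p = 0.0974). Slc11a1 had 181, 232 and 283 CPM in APOE3 microbead, against 227, 176, 205 and 249 CPM in APOE3 sham. These ranges overlapped, and its log2 fold change of 0.12 had a 95% interval from -0.29 to 0.53. From a list of metal handling genes, 4 of 8 tested rose, against 3.54% of all genes called higher. They were the ferritin chains Ftl1, by 1.32 ± 0.18, and Fth1, by 1.03 ± 0.18, the metallothionein Mt1, by 1.65 ± 0.36, and the haem oxygenase Hmox1, by 1.43 ± 0.38 on the log2 scale (adjusted p from 2.29e-05 to 0.0228). In APOE4, 0 of the 8 were called.

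Slc46a1 is the proton-coupled folate transporter. It had 31.7, 44.5 and 44.6 CPM in APOE3 microbead, against 75.6, 87.9, 48.8 and 116 CPM in APOE3 sham. The groups came close, at 44.6 and 48.8 CPM, without overlapping, and the log2 fold change was -1.02 ± 0.29 (adjusted p = 0.0327). The call was lost on leaving out any of 5 libraries: APOE3 microbead 1, 2 or 3 (adjusted p = 0.142, 0.0825 and 0.0543) or APOE3 sham 2 or 4 (0.0739 and 0.146). It was also lost with library totals in place of TMM (adjusted p = 0.199), length offsets (0.141), only the libraries compared (0.085), the replicate number as a block (0.131) and coding transcripts alone (0.0598), with log2 fold changes from -1.06 to -0.92. Slc46a3, a lysosomal carrier of the same family, had 6.79, 35.6 and 19.6 CPM in APOE3 microbead, against 41.2, 56.2, 50.8 and 64.8 CPM in APOE3 sham. All microbead libraries were lower, with a log2 fold change of -1.24 ± 0.34 (adjusted p = 0.0264). It was -1.95 without APOE3 microbead 2. Its call was lost without APOE3 microbead 1 or 3 (adjusted p = 0.149 and 0.0838) and without APOE3 sham 2 or 4 (0.06 and 0.0795). It was lost as well with library totals (adjusted p = 0.197), only the libraries compared (0.099), the replicate block (0.0707) and coding transcripts alone (0.136), with log2 fold changes from -1.27 to -1.10.

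Of the other 2 vitamin and choline carriers, Slc44a2, a choline transporter-like protein, had a log2 fold change of -0.81 ± 0.28 (adjusted p = 0.0966) and was called without APOE3 microbead 3, at -1.35 (adjusted p = 0.00258). The ascorbate transporter Slc23a2 had -0.30 ± 0.27 (adjusted p = 0.711). In APOE4, Slc46a1 had 66.4, 44.9 and 88.2 CPM after microbeads, against 66.4, 61.3, 62.3 and 56.6 CPM after sham. Slc46a3 had 72.4, 48.2 and 51.9 CPM in APOE4 microbead, against 53.8, 51.3, 49.8 and 49.1 CPM in APOE4 sham. Both overlapped between groups, with log2 fold changes of 0.11 ± 0.28 and 0.16 ± 0.31.

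**Figure D2:**
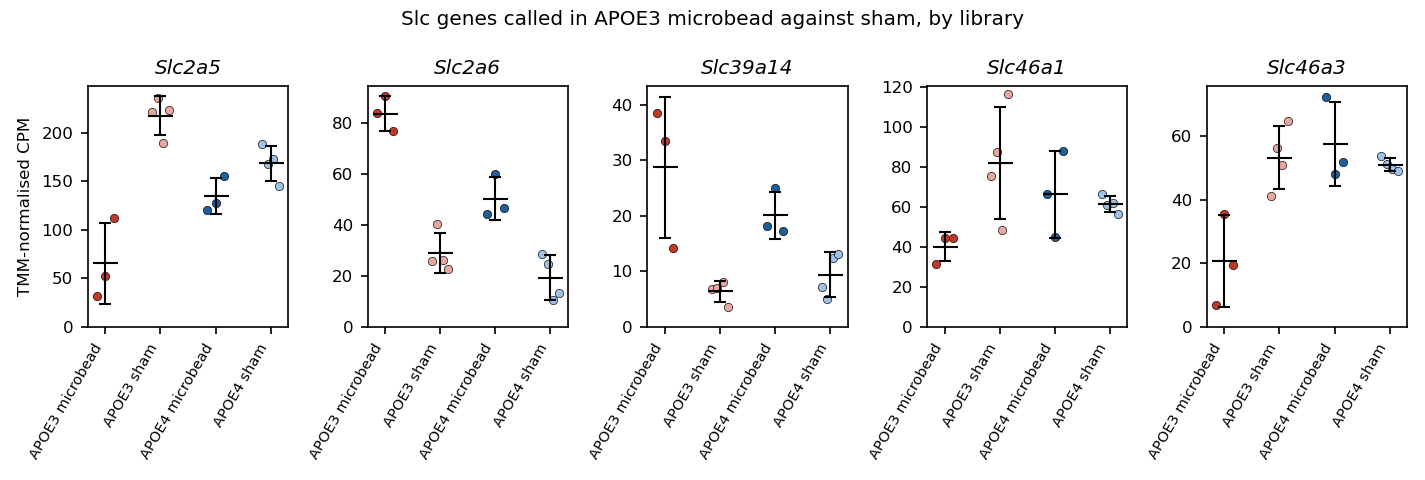
TMM-normalised CPM of the 5 Slc genes called in APOE3 microbead against sham, 1 point per library, with the mean (horizontal line) and SD (bar) of each group (n = 3, 4, 3 and 4). For Slc2a5 the APOE3 microbead libraries lie between 31.7 and 112 CPM and the APOE3 sham libraries between 189 and 235.

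The cell markers given above differed between the same groups as the 5 Slc genes, and their part in these results was not tested. APOE3 microbead 1, with the lowest microglial marker sum of its group, had the lowest Slc2a5, Slc46a1 and Slc46a3 and the highest Slc39a14. Slc2a5 followed the order of that sum, with 31.7, 52.3 and 112 CPM in libraries 1, 2 and 3. Slc39a14 followed it in reverse, with 38.5, 33.4 and 14.3 CPM. Slc2a6 did not follow the order of that sum, with 83.7, 90.2 and 76.7 CPM in libraries 1, 2 and 3. Nor did Slc46a3, with 6.79, 35.6 and 19.6 CPM in the same libraries. Slc46a1 had nearly the same level in libraries 2 and 3, at 44.5 and 44.6 CPM. Of the 12 microglial markers, 8 fell in APOE3 (1.62% of all genes called lower), led by Gpr34 (-2.04 ± 0.27) and P2ry12 (-1.82 ± 0.22 on the log2 scale), and Itgam rose by 0.74 ± 0.22 (adjusted p = 2.29e-05, 6.03e-06 and 0.0442). Fcrls, used for the sort, had a log2 fold change of 0.00 ± 0.24. Of markers of other retinal cells, 0 of 10 rod genes, 0 of 2 neuronal genes and 0 of 1 endothelial gene tested were called in APOE3. Of all genes, 5.15% were called either way. On the list for Müller glia and astrocytes 1 of 2 was called higher, against 3.54% of all genes. This was Vim, an intermediate filament gene of many activated cells, which rose by 5.29 ± 0.71 on the log2 scale (adjusted p = 0.000266). Of the monocyte markers, 1 of 2 tested was called higher, against the same 3.54%, with a median log2 fold change of 2.79. With both APOE3 microbead 1 and 2 left out, 0 of the 50 were called by edgeR, against 0.409% of all genes. The single library left, assumed to vary like the other groups, gave log2 fold changes of -0.95 ± 0.29 for Slc2a5, 1.41 ± 0.43 for Slc2a6, 1.17 ± 0.81 for Slc39a14, -0.90 ± 0.43 for Slc46a1 and -1.44 ± 0.47 for Slc46a3. All 5 kept their direction, but this was fixed in advance. For each of them every APOE3 microbead library already lay on the same side of every APOE3 sham library.

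To show the stretch of genome just before the start of these genes, the 250 bases upstream of the RefSeq start on GRCm38.p6 are printed 5′ to 3′ on the strand of the gene for the 4 called genes that the promoter table held. Capitals mark a GC box (GGGCGG on either strand) or a CCAAT box (CCAAT on either strand), both searched for after the sequences had been seen. Slc2a5 lies on the plus strand, with its window at chr4:150119094-150119343, Slc2a6 on the minus strand at chr2:27027999-27028248, Slc46a1 on the plus strand at chr11:78465451-78465700 and Slc46a3 on the minus strand at chr5:147894816-147895065.
Slc2a5: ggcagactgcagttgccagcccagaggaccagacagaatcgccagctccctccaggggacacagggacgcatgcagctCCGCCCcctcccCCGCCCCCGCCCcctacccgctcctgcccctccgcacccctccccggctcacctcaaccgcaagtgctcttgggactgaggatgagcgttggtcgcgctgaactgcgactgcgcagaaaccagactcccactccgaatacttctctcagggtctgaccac
Slc2a6: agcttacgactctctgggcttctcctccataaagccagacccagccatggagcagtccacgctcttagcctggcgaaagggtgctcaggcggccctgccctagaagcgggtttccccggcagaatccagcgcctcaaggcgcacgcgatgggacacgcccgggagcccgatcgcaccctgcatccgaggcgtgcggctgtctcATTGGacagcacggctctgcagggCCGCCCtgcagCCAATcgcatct
Slc46a1: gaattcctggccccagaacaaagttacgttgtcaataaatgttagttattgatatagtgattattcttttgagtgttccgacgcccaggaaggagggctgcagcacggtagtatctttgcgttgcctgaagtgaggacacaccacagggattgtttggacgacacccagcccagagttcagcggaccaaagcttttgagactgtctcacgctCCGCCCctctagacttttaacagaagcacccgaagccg
Slc46a3: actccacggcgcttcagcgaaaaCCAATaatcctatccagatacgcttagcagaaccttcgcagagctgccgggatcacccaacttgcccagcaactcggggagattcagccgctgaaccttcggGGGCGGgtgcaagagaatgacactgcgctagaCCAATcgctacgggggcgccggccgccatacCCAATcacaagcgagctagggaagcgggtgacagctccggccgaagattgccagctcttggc
Slc2a5 had 3 GC boxes on the minus strand of this window and Slc2a6 had 1 GC box and 2 CCAAT boxes close to the start. Slc46a1 had 1 GC box, and Slc46a3 had 1 GC box and 3 CCAAT boxes. G and C made up 66.4% of the window for Slc2a5, 65.2% for Slc2a6, 49.6% for Slc46a1 and 60% for Slc46a3, against a median of 52.0% over 27025 promoters. A GC box was found in 32.9% and a CCAAT box in 34.5% of all 27025. Of 43 promoters of the 50 Slc genes in the table, 26 held a GC box and 14 a CCAAT box. None of the 4 windows held GAGGAA, the core of PU.1-class sites together with its flank (23.1% of all promoters). The core without that flank was not searched for. Nor did any hold CACGTG, an E-box (6.05%), an interferon-stimulated response element (3.04%) or an NF-kB site (3.75%). Such matches only describe these letters.

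Amino acid and peptide carriers made up the largest class, and 0 of 13 were called in APOE3 by edgeR, while DESeq2 called 1, Slc7a8 (adjusted p = 0.0352). Slc7a8, which exchanges large and small neutral amino acids, had 83.7, 122 and 146 CPM in APOE3 microbead, against 168, 186, 175 and 239 CPM in APOE3 sham. Every microbead library was lower, with a log2 fold change of -0.70 ± 0.22 (adjusted p = 0.0566), and on coding transcripts alone -0.84 ± 0.21, which was called (adjusted p = 0.0324). Its partner Slc3a2 had 161, 159 and 228 CPM in APOE3 microbead, against 132, 188, 173 and 196 CPM in APOE3 sham. These overlapped, and the log2 fold change of 0.08 had a 95% interval from -0.35 to 0.51. Slc38a6 had 690, 315 and 414 CPM in APOE3 microbead, against 481, 675, 514 and 391 CPM in APOE3 sham, a log2 fold change of -0.13 ± 0.23. Slc43a2, which carries branched-chain and aromatic amino acids, had 38.5, 46.8 and 53.5 CPM in APOE3 microbead, against 32.6, 22.8, 30.5 and 20.4 CPM in APOE3 sham. Its log2 fold change of 0.82 ± 0.33 was not called (adjusted p = 0.2). It too was among the 50 only through APOE3 microbead, at 8.01 TPM there and 4.67 TPM over the other libraries, so nothing is read from its groups being apart.

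Genes that act with amino acid carriers in nutrient sensing were taken from 2 lists. Of 17 tested genes of lysosomal amino acid sensing, a list with the Rag GTPases and the Ragulator subunits, 0 rose and 1 fell: Sesn1, a leucine-responsive regulator, with a log2 fold change of -0.92 ± 0.27 (adjusted p = 0.0461), against 1.62% of all genes called lower. Of 12 genes of the amino acid response, 5 were tested and 1 fell, against the same 1.62% of all genes. This was Phgdh, the first enzyme of serine synthesis, with a log2 fold change of -1.66 ± 0.38 (adjusted p = 0.00682). In APOE4 none of either list was called.

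Among the 8 mitochondrial carriers none was called in APOE3, with Slc25a5 at 0.23 ± 0.25 and Slc25a3 at 0.20 ± 0.22 on the log2 scale. Slc25a45 had 79.2, 56.8 and 30.3 CPM in APOE3 microbead, against 108, 91.4, 67.1 and 91.2 CPM in APOE3 sham, which overlapped. Its log2 fold change was -0.71 ± 0.27 (adjusted p = 0.15), and -1.0 without APOE3 microbead 1 (adjusted p = 0.0477). The 5 ion carriers gave 0 calls in APOE3. Slc9a9, an endosomal sodium-proton exchanger, had a log2 fold change of -0.86 ± 0.30 (adjusted p = 0.112), and -1.04 without APOE3 sham 3 (adjusted p = 0.0406). Slc29a3 had -0.38 ± 0.19, the equilibrative nucleoside transporter Slc29a1 -0.73 ± 0.30, and Slc16a6 -0.64 ± 0.26 (adjusted p = 0.384, 0.213 and 0.2). Slc37a2, a sugar phosphate carrier of macrophages, had a log2 fold change of -0.03. Slc22a17, a receptor for lipocalin-2, had 36.2, 29.0 and 41.0 CPM in APOE3 microbead, against 49.8, 70.3, 83.3 and 51.6 CPM in APOE3 sham. Those groups did not overlap, with a log2 fold change of -0.85 ± 0.30 (adjusted p = 0.113), but 0% of its reads lay on protein-coding transcripts.

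Genes of related transport systems gave a mixed picture in APOE3. Among subunits and chaperones of carriers and channels, 3 of 7 rose, against 3.54% of all genes called higher: Cd44 by 2.47 ± 0.53, the lysosomal chloride exchanger Clcn7 by 0.78 ± 0.22 and Glmp, a lysosomal partner of a carrier, by 0.77 ± 0.23 on the log2 scale (adjusted p = 0.00366, 0.035 and 0.0492). Of 5 sodium pump genes tested, 1 rose, against the same 3.54%: the regulatory subunit Fxyd5, by 2.58 ± 0.45 (adjusted p = 0.00155). Of 17 ABC transporters, the cholesterol exporter Abca1 rose by 1.37 ± 0.30 and Abca9 fell, with a log2 fold change of -1.04 ± 0.26 (adjusted p = 0.005 and 0.0152), against 3.54% of all genes called higher and 1.62% called lower. In APOE4 none of these was called.

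In APOE4, microbead against sham gave 0 called of the 50 by edgeR, against 0.197% of all genes, and 1 by DESeq2, Slc2a6, against 1.07% of the 3925 genes to which DESeq2 gave an adjusted p, 46 of the 50 among them. At an unadjusted p under 0.05 it gave 5 of 50, or 10%, against 6.5% of all genes. The median log2 fold change was 0.11 over the 50 and -0.00 over all genes, but -0.13 and -0.23 when scaled by library totals in place of TMM. Groups did not overlap for 4 Slc genes that were higher (4.97% of all genes), namely Slc2a6, Slc39a14, Slc12a9 and Slc38a10, and for 2 that were lower (4.14% of all genes), Slc29a1 and Slc50a1. Slc38a10, a relative of the neutral amino acid transporters, had 82.5, 121 and 83.0 CPM in APOE4 microbead, against 68.2, 64.6, 78.3 and 56.6 CPM in APOE4 sham. Slc12a9 had 173, 108 and 124 CPM in APOE4 microbead, against 102, 96.1, 101 and 83.0 CPM in APOE4 sham. Slc29a1 had 38.2, 48.2 and 38.0 CPM in APOE4 microbead, against 80.8, 67.9, 88.9 and 56.6 CPM in APOE4 sham. The log2 fold changes of these were 0.52 ± 0.24, 0.49 ± 0.25 and -0.82 ± 0.30 (adjusted p = 0.725, 0.79 and 0.459). For 36 of the 50, the 95% interval of the APOE4 change lay within 1 log2 unit of 0, against 28 of the 50 in APOE3.

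**Figure D3:**
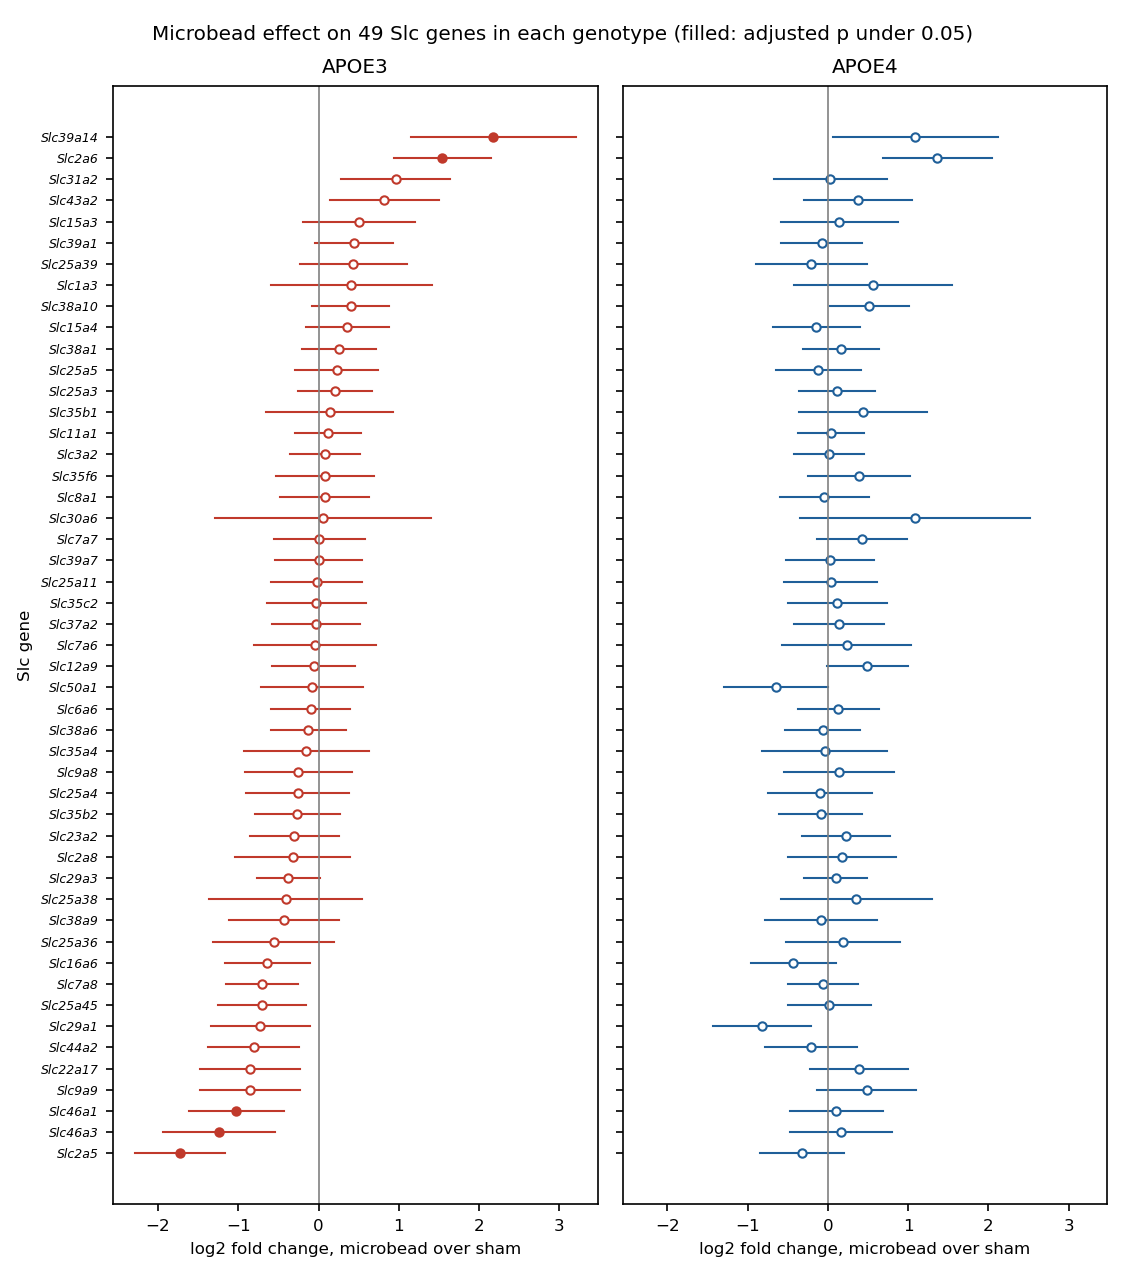
Log2 fold change of microbead over sham with its 95% interval for 49 of the 50 Slc genes in APOE3 (left, red) and APOE4 (right, blue), ordered by the APOE3 value; filled points passed an adjusted p under 0.05. In APOE3 the values run from 2.17 for Slc39a14 to -1.72 for Slc2a5 with 5 filled points, and in APOE4 none is filled.

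Whether the response differed between genotypes was tested by the interaction, the APOE4 change minus the APOE3 change. By edgeR 0 of the 50 were called, against 0.092% of all genes, while 6 had an unadjusted p under 0.05 (12%, against 8.17% of all genes). DESeq2 called 1, Slc2a5, against 2.9% of the 2310 genes to which it gave an adjusted p, 32 of the 50 among them. The interaction for Slc2a5 was 1.4 ± 0.37 on the log2 scale (adjusted p = 0.188 by edgeR and 0.0105 by DESeq2). Without APOE3 microbead 3, the highest of its group, edgeR gave 2.00 (adjusted p = 0.00311). That fit kept only APOE3 microbead 1 and 2, which had the most monocyte marker RNA. Leaving out any other single library gave no call for Slc2a5. Slc46a3 had 1.4 ± 0.46, Slc9a9 1.34 ± 0.43, Slc22a17 1.24 ± 0.43 and Slc46a1 1.13 ± 0.40 (adjusted p from 0.271 to 0.357). Slc39a14 had -1.09, with a 95% interval from -2.56 to 0.39. The median interaction was 0.17 over the 50 and 0.01 over all genes, but -0.06 and -0.21 when scaled by library totals. The calls in APOE3 and their lack in APOE4 are thus not shown by edgeR to be a difference between genotypes.

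After microbeads, APOE4 against APOE3 gave 0 called of the 50 by edgeR, against 0.579% of all genes, and 2 by DESeq2, against 4.72% of the 2310 genes to which it gave an adjusted p, again with 32 of the 50. At an unadjusted p under 0.05 it gave 10 of 50, or 20%, against 9.74% of all genes. This comparison uses the same APOE3 microbead libraries as the comparison within APOE3, so the 2 are not independent. Slc46a3 had 72.4, 48.2 and 51.9 CPM in APOE4 microbead, against 6.79, 35.6 and 19.6 CPM in APOE3 microbead. The log2 difference was 1.33 ± 0.36 (adjusted p = 0.105 by edgeR and 0.0163 by DESeq2). It was 2.04 without APOE3 microbead 2, the highest of its group (adjusted p = 0.0307 by edgeR). Leaving out any other single library gave no call for Slc46a3. Slc2a5 had 121, 128 and 156 CPM in APOE4 microbead, against 31.7, 52.3 and 112 CPM in APOE3 microbead. The log2 difference was 1.03 ± 0.29 (adjusted p = 0.114 by edgeR and 0.0125 by DESeq2). It was 1.63 without APOE3 microbead 3, the highest of its group (adjusted p = 0.000912 by edgeR). Leaving out any other single library gave no call for Slc2a5. Slc7a8 had 0.59 ± 0.23 and Slc2a6 -0.73 ± 0.31 (adjusted p = 0.347 and 0.401). Groups did not overlap for 10 Slc genes higher in APOE4 (7.19% of all genes) and for 2 lower in APOE4 (7.28% of all genes), Slc2a6, among the 50 only through APOE3 microbead, and Slc31a2. Of the 8 genes tested from the metal handling list, 2 were called lower (0.355% of all genes): Fth1 and Ftl1 were lower in APOE4 by -1.03 ± 0.19 and -0.98 ± 0.19 on the log2 scale (adjusted p = 0.00561 and 0.0101). Also called lower, against the same 0.355% of all genes, were 1 of 5 sodium pump genes and 1 of 2 genes on the list for Müller glia and astrocytes. Of the 12 microglial markers, 4 were called higher and 0 lower, against 0.579% of all genes called either way and 0.355% called lower. Their median log2 difference was 0.73, and its part in the Slc values was not tested. Of the same 12, 1 was called higher in APOE4 microbead against sham, against 0.197% of all genes called either way. The interaction also called 1 of them higher, against 0.092%.

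After sham, APOE4 against APOE3 gave 0 called of the 50 by edgeR, against 0.0131% of all genes, and 0 by DESeq2, against 0.00355% of the 28148 genes to which it gave an adjusted p. The unadjusted p was under 0.05 for 2 of the 50, or 4%, against 4.4% of all genes. These were Slc9a9, with -0.65 ± 0.28, and Slc22a17, with -0.62 ± 0.27 on the log2 scale (adjusted p = 0.962 for both). No Slc gene was higher in APOE4 without overlap (2.16% of all genes), and Slc2a5 was the only one lower without overlap (1.38% of all genes). It had 188, 167, 173 and 145 CPM in APOE4 sham, against 222, 235, 189 and 223 CPM in APOE3 sham. The closest libraries of the 2 groups nearly met, and the log2 difference was -0.37 with a 95% interval from -0.84 to 0.11.

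A gene-level value does not always stand for a transcript that can be translated. At least 90% of reads lay on protein-coding transcripts for 23 of the 50, and less than 50% for 8. Among these were Slc22a17 (0%), Slc9a8 (17.9%), Slc30a6 (25%), Slc35b1 (33.3%), Slc39a14 (36.4%), Slc50a1 (44.2%) and Slc38a1 (46.3%). For the other 4 genes called in APOE3, a protein-coding transcript took the largest share: Slc2a5-201 had 93.4%, Slc46a1-201 93.3%, Slc2a6-201 66.6% and Slc46a3-201 65.0% of reads. Some genes share exon sequence with a neighbour, so their reads could be split: Slc39a7 overlaps Gm20427 over 80.7% of its exons, on the same strand. On the opposite strand, Slc15a3 overlaps Tmem132a over 28.1% and Slc16a6 overlaps Amz2 over 21.5%. Slc25a4 and Slc25a5 have close relatives and pseudogene copies, which makes their values uncertain. None of the 5 called genes had such an overlap in the annotation.

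**Figure D4:**
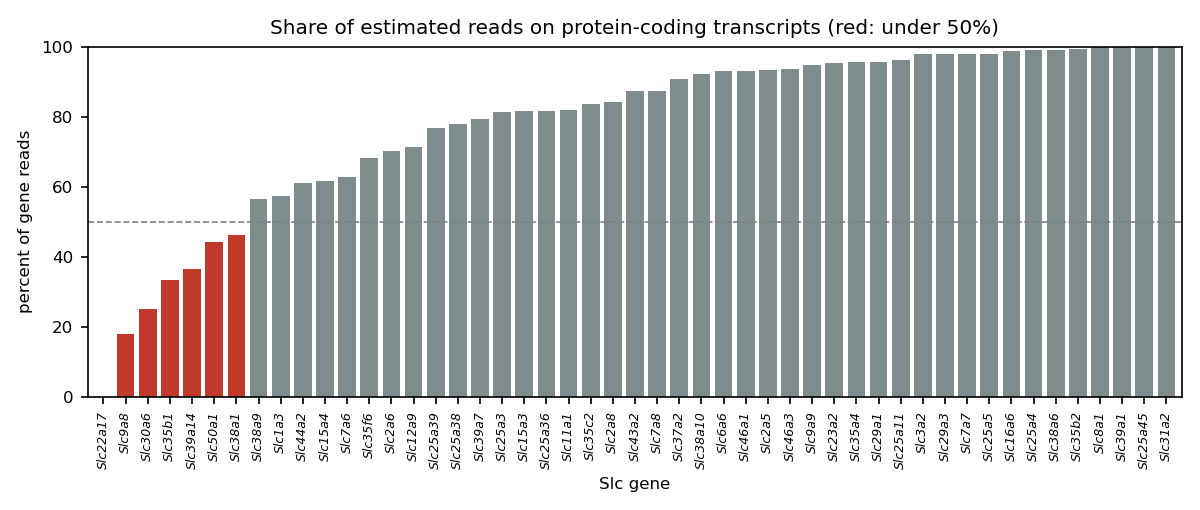
Percent of estimated reads of 49 of the 50 Slc genes, summed over 14 libraries, that lay on transcripts annotated as protein coding, sorted from low to high; red bars are under 50%. The lowest is Slc22a17 at 0%, and Slc39a14 stands at 36.4%.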

How the data were processed

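RNA of sorted retinal microglia was measured in 14 libraries. Per the submitters' processing notes, Salmon 1.4.0, R 4.0.3 and DESeq2 1.30.1 were used with mm10; the role of each and the annotation are not given in the sources used here. The authors deposited estimated counts (expected counts per transcript, from quantification files), effective lengths in bases and TPM per transcript for each library, and a series table of TPM per gene. That table chose the 50 Slc genes. As a check of labels, TPM was recomputed from each library: 99.2% to 99.4% of genes lay within 1% of that library's column, and at most 2.11% within 1% of any other. GENCODE M21 (GRCm38) placed 115945 of 116945 transcripts in 35449 genes, and estimated counts were summed per gene and rounded.

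Genes were kept by filterByExpr (minimum count 10, minimum total 15), which left 7605 of 28158 with a read. The edgeR 4.0.16 quasi-likelihood test (R 4.3.3) with TMM scaling was fitted once to the 4 groups over all 14 libraries, two-sided, and p-values were adjusted by Benjamini-Hochberg over the 7605 genes; the biological coefficient of variation was 0.275. It was tested on simulated data, whose outcome is not given here, so no support is drawn from that. SEs come from the quasi-likelihood F statistic. At these depths, counting limits the precision of genes with few reads. Alternatives were DESeq2 1.42.0, other scaling, no filter, length offsets, only the libraries compared, a replicate block and libraries left out. Counting only reads on protein-coding transcripts was added after seeing the data.

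Named Slc genes were those called, the 15 highest in TPM, the 6 with the smallest p in each comparison, the highest of each class and those next to the threshold; others named (Slc7a6, Slc7a7, Slc39a7, Slc31a2, Slc43a2, Slc2a8, Slc23a2, Slc1a3 and those singled out by transcript type or overlap) were chosen after their values were seen. The genes and lists were chosen with earlier results of these data known. Counts for lists use only members tested. Of the 50, 1 is not reported here by name or in the figures, but is part of all counts.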

Additional observations from a re-analysis of the deposited data

Results flagged for a closer look

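Each of the 50 Slc genes was checked in the 2 sham groups, which had 4 libraries each, for a library whose CPM stood apart from its group by Dixon's test at 95%. This gave 100 checks and 2 results, while chance gives about 1 in 20. Both were in APOE4 sham 3. Slc1a3, the glutamate transporter GLAST, had 19.6 CPM there, against 37.7 to 39.7 CPM in the other APOE4 sham libraries. Slc9a8, a sodium-proton exchanger of the Golgi apparatus, had 53.4 CPM there, against 28.7 to 31.5 CPM in the others. Neither gene was called in any comparison.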

How the results depend on the processing

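In APOE3, Slc2a5 was called in 22 of 23 alternatives, all but that without both APOE3 microbead 1 and 2. Slc2a6 was called in 21 of 23, losing its call there and on coding transcripts alone. Slc39a14 lost its call in 3 of 21, and was not tested with only the libraries compared or on coding transcripts alone. Slc46a1 lost its call in 11 of 23 and Slc46a3 in 9 of 23. The count of 5 called of 50 became 3 with library totals, 3 with length offsets, 2 with only the libraries compared, 3 with the replicate block, 0 without both APOE3 microbead 1 and 2, 2 with reads on coding transcripts (1 of them, Slc2a5, among the 5), and 3 to 6 with 1 library left out (3 without APOE3 microbead 2, sham 2 or sham 4). The 0 in APOE4 became 1 with DESeq2. The 0 for the interaction became 1 with DESeq2 and 0 to 1 with 1 library left out. The 0 for APOE4 against APOE3 after microbeads became 2 with DESeq2 and 0 to 1 with 1 library left out. In fits on fewer libraries the filter was applied again, so the genes tested moved too; otherwise the cause was not tested. Over 19 pairs of the same replicate number, correlations of deviations from the group mean ran from -0.144 to 0.0985. Over 54 pairs of different numbers they ran from -0.206 to 0.255. These values show no pairing by number but cannot exclude a pairing of the samples, since no label ties a retina to an animal. Library totals in place of TMM shifted the all-gene median by -0.23 in APOE4, -0.21 in the interaction and 0.16 after sham, and turned the sign of the median over the 50 there, to -0.13, -0.06 and 0.11. A threshold of 10 TPM left 19 genes, and 5 TPM in every group 32. With 15 to 55 reads per group, Slc39a14 is limited by depth.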
